A study of Rattus norvegicus with 9 samples.

Results

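The sodium pump of the arterial wall was followed through the probesets of its beta subunit genes Atp1b1, Atp1b2 and Atp1b3 and of Fxyd1, which encodes a small protein that binds the pump. Members were all probesets of the RAE230A rat array that the platform annotation names by one of these symbols. This gave 5 probesets of 4 genes among 15923 probesets, and 4 of the 5 passed the filter on low signal that left 9038 probesets for testing. Each gene had 1 probeset except Atp1b1, which had 2. Expression was measured on 9 arrays of arterial RNA, 3 in each of 3 groups of male rats aged 16 weeks. The tissue was a saphenous artery side branch (the primary one), and each array held RNA pooled from 2 to 3 rats of its group. The WKY group were untreated Wistar-Kyoto rats, which are normotensive. The ACTH group were rats of the same strain given adrenocorticotropic hormone under the skin for 4 weeks, at 0.1 mg/kg/day by the labels, while the methods of the study state another dose. The SHR group were untreated spontaneously hypertensive rats, an inbred strain with inherited high blood pressure, so any SHR difference is also a difference of strain. The labels do not say whether pools of a group shared animals, and the p-values below measure the spread between these arrays.

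The sodium pump, Na+,K+-ATPase, moves sodium out of the cell and potassium into it at the cost of ATP. Its alpha subunit carries out transport, and its beta subunit, a glycoprotein with a single membrane span, is needed for the pump to fold, leave the endoplasmic reticulum and reach the plasma membrane. FXYD proteins attach to the assembled pump and tune its affinity for ions, and Fxyd1, phospholemman, is the family member best known in heart and smooth muscle, where its phosphorylation relieves an inhibition of the pump. In arterial smooth muscle the sodium gradient that the pump maintains drives sodium and calcium exchange, and through it bears on contraction.

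Signals are given as the authors deposited them, as linear MAS5 intensities after scaling of each array to a common target. The trimmed mean of every array lay between 150.03 and 150.04, and array medians lay between 52.3 and 58.1. The wall of the artery was represented by its defining genes: smooth muscle Tagln, an actin-binding protein, averaged 6094 ± 411 on WKY arrays, 5692 ± 509 on ACTH arrays and 7172 ± 591 on SHR arrays (SD, n = 3). Most skeletal muscle markers did not pass the filter, among them creatine kinase Ckm, the myosins Myh2, Myh4 and Myh7, and Pvalb. Of 16 such genes on the array 5 passed, with 9 of 21 probesets. These were Acta1, Myl1, Casq1, Eno3 and another myosin, Myh1, whose probesets had WKY means of 111.8 to 618.7. Arrays were scanned on 4 days, and no day held arrays of both ACTH and WKY. The GAPDH 3'/5' signal ratio, a measure of how far RNA or cDNA reaches back from the 3' end, was 4.91 to 5.99 on the WKY arrays, 3.67 to 4.52 on the ACTH arrays and 3.57 to 5.16 on the SHR arrays.

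Atp1b1 was higher in SHR arteries than in either group of WKY rats on both of its probesets, although 1 of them did not pass the test against WKY. Atp1b1 encodes the beta1 isoform, the most widely expressed beta subunit. On probeset 1386937_at, called the brighter probeset below, the WKY arrays gave 237.6, 307.1 and 403.2, the ACTH arrays 211.4, 204.8 and 225.0, and the SHR arrays 439.8, 673.0 and 680.5. No array of one group overlapped with another group, with ACTH lowest, WKY between and SHR highest. The WKY mean was 316.0 ± 83.2, the ACTH mean 213.7 ± 10.3 and the SHR mean 597.8 ± 137 (SD, n = 3).

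Probeset 1367814_at, the dimmer probeset, is another probeset of the same gene, read on the same arrays and RNA pools. The platform annotation assigns both probesets the same source sequence, so their agreement is not independent evidence. Its signal was 46.6, 41.4 and 69.1 on the WKY arrays, 45.9, 32.3 and 59.4 on the ACTH arrays, and 136.3, 129.0 and 104.3 on the SHR arrays. The WKY and ACTH arrays overlapped, and every SHR array lay above all 6 of them. Means were 52.4 ± 14.7, 45.9 ± 13.5 and 123.2 ± 16.8 in WKY, ACTH and SHR (SD, n = 3). Signal reached the filter minimum of 45 on 2 WKY, 2 ACTH and 3 SHR arrays, so the probeset would have passed the filter without the SHR arrays. The names brighter and dimmer only tell the probesets apart, since signals of different probesets cannot be set against each other. Over the 9 arrays the log2 signals of the pair had a Pearson correlation of 0.86, a description to which the group differences contribute. By that measure the dimmer probeset ranked 49 of 7675 in likeness to the brighter.

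**Figure D1:**
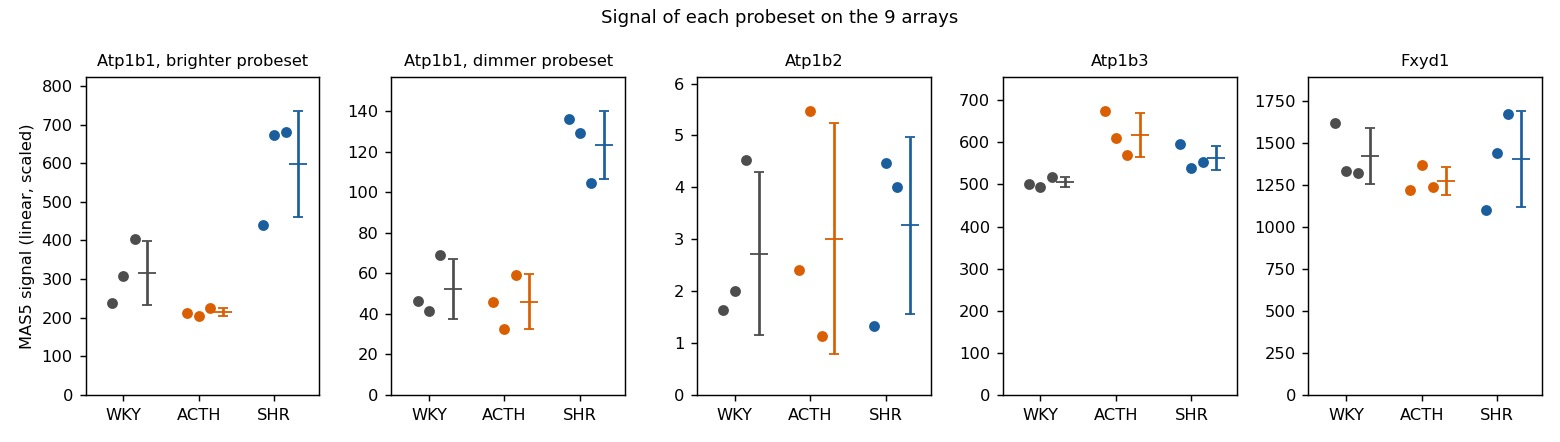
Deposited MAS5 signal (linear, y axis) of the 5 probesets on each array, in replicate order within WKY (grey), ACTH (orange) and SHR (blue), with the group mean and SD beside the points (n = 3 arrays). Each panel has its own axis from 0. Both Atp1b1 probesets place the SHR arrays above the other 6, while the Fxyd1 and Atp1b2 groups overlap.

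The comparison of SHR with WKY asks how the artery of an inherited hypertension differs from that of the normotensive strain. By limma with Benjamini-Hochberg adjustment over all 9038 probesets, 1 of the 4 member probesets passed an adjusted p of 0.05, the dimmer Atp1b1 probeset, against 2.04% of all probesets tested and 0.952% in the higher direction. It rose 2.40-fold, by 1.26 ± 0.25 on the log2 scale (standard error here and below, 95% interval 0.71 to 1.82, adjusted p = 0.0306). The brighter probeset gave a fold of 1.90, a log2 difference of 0.93 ± 0.22 (95% interval 0.43 to 1.42), and did not pass (adjusted p = 0.0671). Differences at least as high were found in 0.598% of the probesets tested for the dimmer probeset and in 1.34% for the brighter. In 3 of the 4, both Atp1b1 probesets and Atp1b3, the SHR arrays all lay above the WKY arrays, against 9.69% of all probesets. In whole artery, more cells that express a gene and more RNA per cell cannot be told apart.

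The call in SHR against WKY rested on several arrays. The adjusted p of the dimmer probeset was 0.1085 without WKY 1, 0.0742 without WKY 2, 0.0568 without ACTH 1, 0.1035 without SHR 1 and 0.106 without SHR 2, while that of the brighter probeset came to 0.0438 without WKY 3 and 0.0345 without SHR 1. With the GAPDH 3'/5' ratio, which was higher in WKY, as a covariate, the dimmer probeset differed by 0.71 (adjusted p = 0.35) and the brighter by 1.02 (adjusted p = 0.292). The scan day that SHR and WKY shared held SHR 1, SHR 2 and WKY 2. Within it the SHR mean was 1.77-fold that of WKY on the brighter probeset and 3.20-fold on the dimmer, and with scan day as a block the adjusted p values were 0.333 and 0.149.

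The comparison of SHR with ACTH sets the inherited hypertension beside the hormone-induced one. Here 2 of the 4 member probesets passed, both of Atp1b1, against 3.41% of all probesets and 1.55% in the higher direction, and these were also the 2 without overlap of arrays, against 11.7% of all probesets in that direction. The brighter probeset was 2.75-fold higher in SHR, a log2 difference of 1.46 ± 0.22 (95% interval 0.97 to 1.95, limma adjusted p = 0.00716). The dimmer probeset gave the same fold of 2.75 and a log2 difference of 1.46 ± 0.25 (95% interval 0.91 to 2.01, limma adjusted p = 0.0112). Differences at least as high were found in 0.387% of all probesets for the brighter and 0.376% for the dimmer. The call of the dimmer probeset was lost without SHR 2 (adjusted p = 0.0508), and that of the brighter held without any 1 array. On the scan day that both groups shared, SHR 3 was 3.19-fold the mean of the 3 ACTH arrays on the brighter probeset and 2.34-fold on the dimmer, and with scan day as a block neither passed (adjusted p = 0.0683 and 0.214).

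The comparison of ACTH with WKY asks what treatment with the hormone changed within a strain. None of the 4 member probesets passed in limma after Benjamini-Hochberg adjustment, against 1.25% of all probesets. At an unadjusted p under 0.05, a level that 12.5% of all probesets reached, 2 of the 4 stood, the brighter Atp1b1 probeset and Atp1b3, in opposite directions. For the brighter Atp1b1 probeset the log2 difference was -0.53 ± 0.22 (95% interval -1.02 to -0.04, adjusted p = 0.356), with every ACTH array below every WKY array, as in 9.77% of all probesets. The dimmer probeset gave -0.20 ± 0.25 (95% interval -0.75 to 0.36, adjusted p = 0.821), and its groups overlapped. WKY and ACTH arrays shared no scan day and are linked over days only through the SHR arrays. With scan day as a block the brighter probeset gave -0.85 ± 0.38 (limma adjusted p = 0.545) and the dimmer 0.45 ± 0.47 (adjusted p = 0.776), on 3 residual degrees of freedom. The ACTH and SHR comparisons against WKY use the same WKY arrays.

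**Figure D2:**
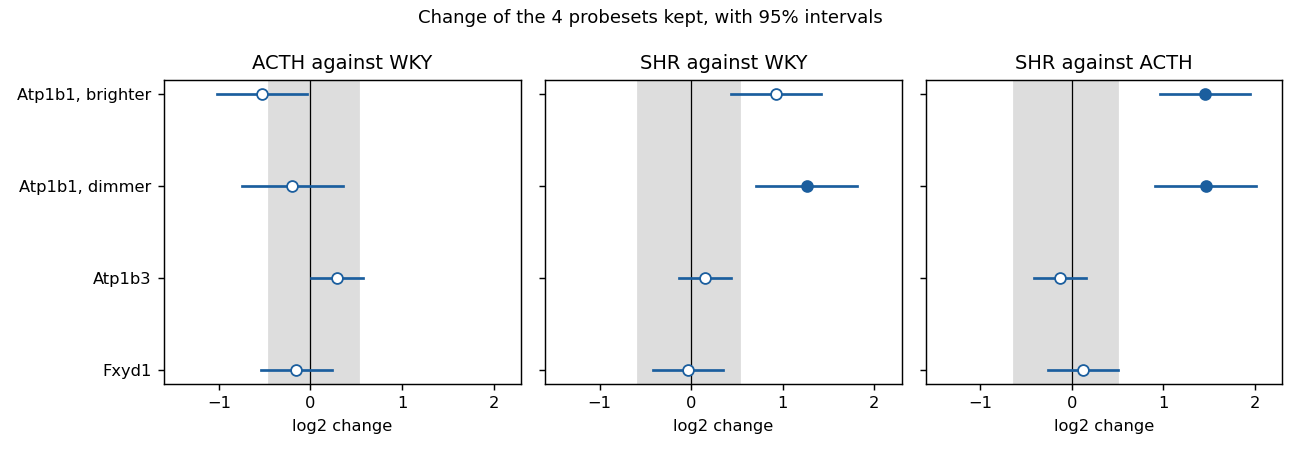
Log2 change (x axis) of the 4 probesets that passed the filter in the 3 comparisons, with 95% intervals from limma; filled points passed an adjusted p of 0.05, open points did not, and the grey band spans the 5th to 95th percentile of all 9038 changes. The Atp1b1 changes in SHR against ACTH, 1.46 on both probesets, lie beyond the band, and those of Fxyd1 lie inside it in each comparison.

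Atp1b3 encodes the beta3 isoform, which can take the place of beta1 in the pump. Probeset 1398300_at gave 501.8, 494.9 and 518.3 on the WKY arrays, 674.2, 610.1 and 571.0 on the ACTH arrays, and 595.3, 538.7 and 554.2 on the SHR arrays. All 6 ACTH and SHR arrays lay above the 3 WKY arrays, and the ACTH and SHR arrays overlapped. The spread within a group was small, the WKY mean being 505.0 ± 12.0, the ACTH mean 618.4 ± 52.1 and the SHR mean 562.7 ± 29.2 (SD, n = 3).

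The Atp1b3 differences were correspondingly small and did not pass in limma. ACTH gave a fold of 1.22 over WKY (log2 0.29 ± 0.13, 95% interval 0.01 to 0.57, adjusted p = 0.390), with ACTH arrays all above WKY as in 10.7% of all probesets. SHR gave a fold of 1.11 over WKY (log2 0.16 ± 0.13, 95% interval -0.13 to 0.44, adjusted p = 0.581). Between SHR and ACTH the log2 difference was -0.13 ± 0.13 (95% interval -0.42 to 0.15, adjusted p = 0.648). The order of the group means, ACTH, SHR and WKY from high to low, thus has no neighbours that differed beyond the test.

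Fxyd1 did not pass the test in any comparison. Probeset 1369960_at gave 1618, 1332 and 1318 on the WKY arrays, 1221, 1370 and 1235 on the ACTH arrays, and 1103, 1441 and 1669 on the SHR arrays. The SHR arrays spanned the lowest and the highest of the 9 values, and all 3 groups overlapped. Group means were 1422 ± 169.5 (WKY), 1275 ± 82.3 (ACTH) and 1404 ± 285 (SHR) (SD, n = 3). Log2 differences were -0.15 ± 0.17 for ACTH against WKY (95% interval -0.54 to 0.23), -0.03 ± 0.17 for SHR against WKY (95% interval -0.42 to 0.35) and 0.12 ± 0.17 for SHR against ACTH (95% interval -0.26 to 0.50). Adjusted p values from limma were 0.794, 0.945 and 0.783, and together the intervals leave room for log2 differences between -0.54 and 0.50.

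Atp1b2, which encodes the beta2 isoform known from glia and neurons, had signals below the filter on every array. Probeset 1369798_at gave 1.63, 2.01 and 4.52 on the WKY arrays, 2.42, 5.47 and 1.14 on the ACTH arrays, and 1.32, 4.47 and 4.00 on the SHR arrays. The groups overlapped throughout. Its third-highest signal, 4.47, is below the filter minimum of 45, so it was left out of the test. In the fit of all 15866 probesets that are no controls its log2 difference was 0.01 ± 0.71 for ACTH against WKY and 0.23 ± 0.71 for SHR against WKY (adjusted p = 0.998 and 0.935). The standard error is several times those of the other members, and a change at this signal was not detectable.

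Across the 3 groups the F test of limma called 2 of the 4 member probesets, both of Atp1b1, against 4.12% of all probesets tested. Adjusted p was 0.0115 for the brighter and 0.0148 for the dimmer probeset, 0.393 for Atp1b3 and 0.825 for Fxyd1.

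The balance of the beta1 and beta3 isoforms was read within each array as log2 Atp1b1 minus log2 Atp1b3, a difference in which the scale of the array cancels. Its level depends on the probesets and has no meaning by itself, and only its change between groups was compared. With the brighter Atp1b1 probeset it was -1.08, -0.69 and -0.36 on the WKY arrays, -1.67, -1.57 and -1.34 on the ACTH arrays, and -0.44, 0.32 and 0.30 on the SHR arrays. ACTH lay below WKY without overlap, while SHR 1 lay below WKY 3. The change was -0.82 ± 0.23 in ACTH against WKY (two-sided exact permutation p = 0.1, n = 3 and 3), 0.77 ± 0.32 in SHR against WKY (exact p = 0.2) and 1.59 ± 0.27 in SHR against ACTH (exact p = 0.1). With 3 arrays against 3 an exact p cannot go below 0.1, so none of these can pass 0.05.

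With the dimmer Atp1b1 probeset the balance moved by -0.49 ± 0.35 in ACTH against WKY (two-sided exact permutation p = 0.3), by 1.11 ± 0.23 in SHR against WKY (exact p = 0.1) and by 1.59 ± 0.30 in SHR against ACTH (exact p = 0.1). The direction of all 3 changes was that of the brighter probeset. Such a difference shows unequal change of the pair and not which of them changed.

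**Figure D3:**
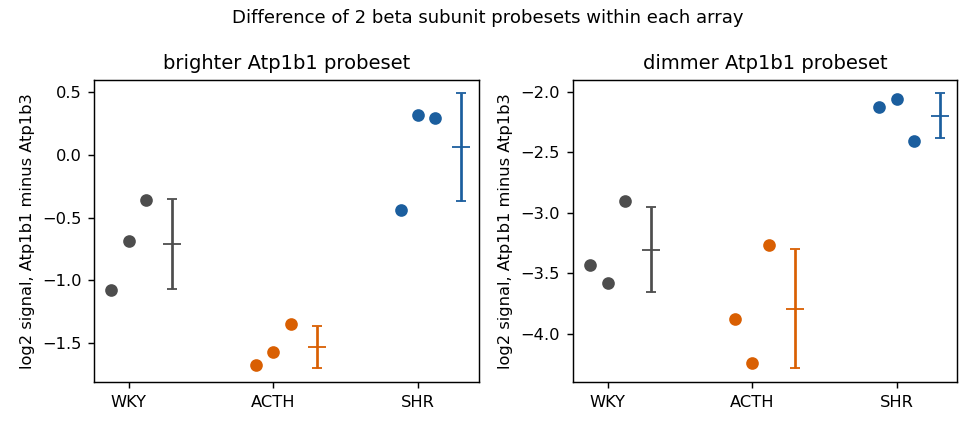
Log2 signal of Atp1b1 minus log2 signal of Atp1b3 within each array (y axis) for the brighter (left) and dimmer (right) Atp1b1 probeset, with group mean and SD (n = 3 arrays); the axes do not start at 0 and only changes between groups are to be read. SHR is the highest group in both panels, 1.59 above ACTH in each.

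Of the other genes of the pump and the FXYD family, 8 had a probeset, and 2 passed the filter. Fxyd5, dysadherin, averaged 228.1 ± 59.6 (WKY), 204.6 ± 16.4 (ACTH) and 233.4 ± 64.7 (SHR), with log2 differences between -0.13 and 0.16 and no call. Fxyd7, known from brain and the neighbour of Fxyd1 on its chromosome, had means of 86.0 ± 3.77, 109.4 ± 13.0 and 81.2 ± 14.1 (SD, n = 3). Its ACTH arrays lay above all WKY and SHR arrays, and ACTH above WKY without overlap was found in 10.7% of all probesets. Log2 differences were 0.34 ± 0.16 against WKY (limma adjusted p = 0.422) and, for SHR against ACTH, -0.44 ± 0.16 (adjusted p = 0.187). Signals of Atp1a4, Atp1b4, Fxyd2, Fxyd3, Fxyd4 and Fxyd6 were below the filter.

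The list of ion exchangers, ion cotransporters, calcium pumps and a pump inhibitor had 17 probesets of 12 genes past the filter. None was called in ACTH against WKY or in SHR against ACTH, and 1 rose in SHR against WKY, with medians of -0.02, -0.05 and -0.01 in ACTH against WKY, SHR against WKY and SHR against ACTH, beside 0.02, -0.004 and -0.02 over all probesets. The 1 was Slc12a2, the sodium, potassium and chloride cotransporter NKCC1, which brings sodium into smooth muscle cells. Its signals were 182.6, 234.0 and 195.3 on the WKY arrays and 360.4, 303.3 and 310.3 on the SHR arrays, without overlap, as in 9.69% of all probesets. The log2 difference was 0.67 ± 0.15 (limma adjusted p = 0.049), at the edge of the threshold, and the call was lost without any 1 of the arrays except WKY 2 (adjusted p up to 0.147). No probeset of Atp2a2, the sarcoplasmic reticulum calcium pump, or of Pln, its inhibitor phospholamban, was called.

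The list of proteins that anchor the pump or signal with it, such as ankyrins, spectrins, adducins and caveolins, also had 17 probesets past the filter, with 1 higher in ACTH and 1 higher in SHR against WKY and none called in SHR against ACTH. The list medians were 0.02, 0.05 and 0.05 in the same order. Both calls were of Cav1, caveolin-1, the coat protein of caveolae, where part of the sodium pump resides, and both were of its probeset 1370131_at. That probeset gave 35.1, 25.3 and 27.4 on the WKY arrays, 80.3, 73.6 and 66.1 on the ACTH arrays, and 97.8, 91.0 and 64.4 on the SHR arrays, so that the WKY arrays were under the filter minimum. Log2 differences were 1.33 ± 0.19 in ACTH (adjusted p = 0.0102, 0.0597 without ACTH 1, and 0.236 at a difference of 2.08 with scan day as a block) and 1.52 ± 0.19 in SHR (adjusted p = 0.00256). The probesets of Cav1 disagreed: 1372111_at, which averaged 2296 ± 761 (WKY), 2142 ± 132 (ACTH) and 2023 ± 133 (SHR), gave -0.05 and -0.13 (limma adjusted p = 0.957 and 0.793).

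The list of corticosteroid and sodium regulators had 17 probesets past the filter, with medians of -0.07, 0.11 and 0.07. One fell in ACTH against WKY and 1 was higher in SHR against ACTH. The clock and glucocorticoid-responsive gene Per1 fell by 2.92 on the log2 scale in ACTH (SE 0.55, limma adjusted p = 0.0328), or by 1.94 when a pseudocount of 16 was added to the signals, with 112.6, 141.8 and 86.4 on the WKY arrays and 8.20, 8.46 and 46.3 on the ACTH arrays, 2 of the latter under the filter minimum. Its call was lost without any 1 of 7 arrays, and the adjusted p reached 0.133 without ACTH 1. Tsc22d3, the glucocorticoid-induced leucine zipper, was higher in SHR than in ACTH by 0.80 ± 0.15 (adjusted p = 0.0173, and up to 0.082 without any 1 of ACTH 1, ACTH 2, ACTH 3, SHR 2 or SHR 3). Its ACTH arrays, at 458.2, 424.8 and 417.1, lay below the WKY arrays at 592.6, 745.1 and 753.3, as in 9.77% of all probesets (log2 -0.68 ± 0.15, adjusted p = 0.0628).

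**Figure D4:**
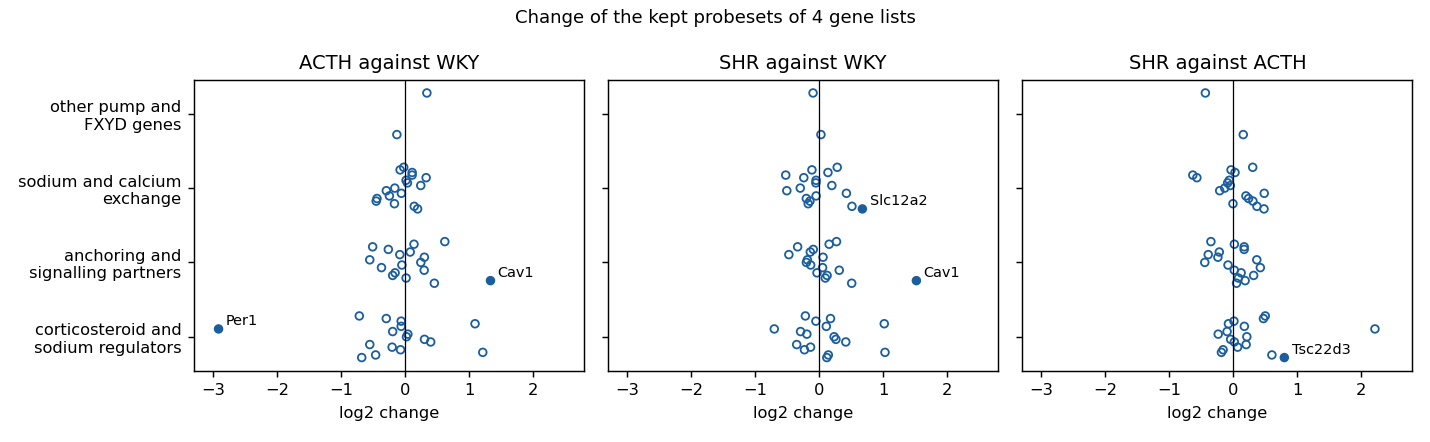
Log2 change (x axis) of every probeset past the filter in the 4 pathway lists (y axis, members left out) for the 3 comparisons; filled, named points passed an adjusted p of 0.05 in limma and open points did not. Apart from Per1, Cav1, Slc12a2 and Tsc22d3, no probeset of the lists was called.

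The genes whose log2 signal over the 9 arrays was most like that of the brighter Atp1b1 probeset were Mmrn2 (Pearson r = 0.960), Plb1 (0.956), Anxa5 (0.950), Mgll (0.941) and Tmem97 (0.931). Plb1, a phospholipase, was the one among them that was called in a comparison, higher in SHR than in ACTH by 0.85 ± 0.12 (limma adjusted p = 0.00514). Nearest to Atp1b3 were Spp1 (r = 0.948), Efemp1 (0.925), Slc1a3 (0.886), Retreg1 (0.886) and Akap12 (0.885). Spp1, osteopontin, a secreted protein of macrophages and of injured arteries, rose in ACTH against WKY by 1.41 ± 0.23 (limma adjusted p = 0.018), and the call was lost without WKY 1, WKY 3, ACTH 1 or ACTH 2 (adjusted p up to 0.0909). Nearest to Fxyd1 were Aplp2 (r = 0.955), Dbndd2 (0.943), Mapre3 (0.942), Mrpl52 (0.937) and Srebf2 (0.930), none of them called. These correlations are over 9 arrays that share a platform, a scaling and 3 groups, and describe the pattern only.

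The genes beside Atp1b1 on its chromosome did not pass the test. Nme7 on one side differed by 0.06 ± 0.19 between SHR and WKY (limma adjusted p = 0.899), and both probesets of Dpt on the other side, which encodes dermatopontin, were higher by 0.57 ± 0.20 and 0.64 ± 0.28 without passing (adjusted p = 0.200 and 0.289). For Atp1b3 the nearest genes with a tested probeset were Trpc1 and Rnf7, for Atp1b2 Wrap53 and Sat2, and for Fxyd1 Fxyd7 and Wtip, and none was called in any comparison.

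Other cell types of the artery were followed by marker lists, whose part in the Atp1b1 and Atp1b3 values was not tested. Smooth muscle markers summed to 36330 to 42900 on the WKY arrays, 37330 to 38610 on the ACTH arrays and 40380 to 41980 on the SHR arrays, and of 12 probesets 1, the intermediate filament desmin (Des), was called, lower in SHR against both groups. The sums of endothelial markers were 4700 to 5165 (WKY), 4021 to 4613 (ACTH) and 4378 to 4877 (SHR). Of 12 endothelial probesets 2 were higher and 2 lower in SHR against WKY, and 9 of the 12 differences were positive (median 0.29). A probeset of the VEGF receptor Flt1 at 1.71 (limma adjusted p = 0.00424) and endomucin, Emcn, at 1.15 (adjusted p = 0.0161) were higher. Von Willebrand factor, Vwf, at -1.28 (adjusted p = 0.0112) and a probeset of Icam2 at -1.73 (adjusted p = 0.0184) were lower. The probesets of Icam2 disagreed: the other one past the filter gave 0.44 ± 0.16 without passing the test (limma adjusted p = 0.225). Like Atp1b1, the called Flt1 probeset was also higher in SHR than in ACTH, by 1.29 (limma adjusted p = 0.0155), and the called Icam2 probeset was lower. The called Flt1 probeset gave 15.28, 26.67 and 16.19 on the WKY arrays and 21.22, 23.7 and 31.38 on the ACTH arrays, all under the filter minimum. It passed the filter only through the SHR arrays, at 54.3, 58.55 and 72.39, and the other Flt1 probesets did not pass.

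Macrophage markers had their highest sums in ACTH, the group with the highest Atp1b3 mean. Their sums were 460.3 to 1376 (WKY), 1612 to 2415 (ACTH) and 1063 to 1629 (SHR), and all 8 probesets had positive differences against WKY in both groups. Against WKY 1 passed, the complement gene C1qc, in ACTH at 2.34 (limma adjusted p = 0.0439), and 1, Cd14, was lower in SHR than in ACTH. Fibroblast markers summed to 20290 to 23560 (WKY), 12840 to 16470 (ACTH) and 19440 to 22360 (SHR). Of 14 fibroblast probesets 4, all of collagen genes, were lower in ACTH than in WKY and 3 were higher in SHR than in ACTH. The fibroblast list did not move as a whole. In ACTH against WKY 4 of its 14 differences were positive (median -0.32), none of them of a collagen gene. Among these was Dcn at 0.50 ± 0.15, which did not pass (limma adjusted p = 0.171). Schwann cell and nerve markers summed to 1706 to 2624, 2244 to 2431 and 2096 to 2444, with none of 6 probesets called. Adipocyte markers summed to 1043 to 1175, 1014 to 1235 and 1002 to 1154, and in SHR against WKY 5 of 6 differences were positive (median 0.53). Of these 6 probesets Cfd was called higher in ACTH against WKY, and Cidea was lower in SHR against both groups. Hormone-sensitive lipase, Lipe, had its lowest mean in ACTH and its highest in SHR, as Atp1b1 had, at 61.2 ± 18.7 (WKY), 42.5 ± 2.04 (ACTH) and 96.6 ± 3.57 (SHR). It was higher in SHR than in ACTH by 1.18 (limma adjusted p = 0.0112). Its ACTH signals, 42.4, 40.5 and 44.6, were under the filter minimum of 45, and it passed the filter only through the SHR arrays. The adipocyte list did not share the direction of Lipe, since in SHR against ACTH 3 of its 6 differences were positive (median -0.03). Cidea went the other way there, at -2.08. Of 9 skeletal muscle probesets, which summed to 1988 to 2507, 1907 to 2206 and 2093 to 2277, 1 was higher and 1 lower in SHR against WKY, Acta1 at 0.92 and a probeset of Myh1 at -0.79.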

How the data were processed

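RNA of 9 artery samples was amplified in a pair of cycles and hybridized to RAE230A arrays, 1 per pool. Deposited intensity values come from MAS5, by which the authors scaled every array to a target of 150. Values are linear and carry no detection calls, and depth does not apply; the number of arrays limits the precision. A genome build is not given in the sources used here. Scan day was taken from the scanner settings.

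Control probesets (57) were removed, and the 9038 of 15866 others whose third-highest signal was at least 45 were kept, 7676 of them with 1 symbol. Over the array, 12789 probesets have 1 symbol, 312 several and 2822 none, and 10379 of 10412 gene identifiers were found in the RefSeq table (GRCr8), which was used for names and neighbours. A model of 3 group means was fitted to log2 signals with limma 3.58.1 under R 4.3.3 (functions lmFit and eBayes, 6 residual and 4.51 prior degrees of freedom), two-sided, with Benjamini-Hochberg adjustment over the kept probesets and a threshold of 0.05. The study's filter on detection was replaced because the files used here hold no detection calls. Its unmoderated F test and contrasts were run as an alternative, since limma shares the estimate of spread across probesets when groups hold 3 arrays.

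Named were every member probeset, every other pump or FXYD gene, called probesets and the lowest F p of the other pathway lists, the 5 genes most like each member, the nearest tested neighbours, and up to 3 markers a list of highest signal; the other markers named, Des, Cd14, Flt1, Emcn, Icam2, Lipe and the skeletal muscle names below the filter among them, and Atp2a2 and Pln, were chosen after their values were seen. Members and lists were chosen with earlier results of these data known. The procedure was tested on simulated data: of probesets changed between SHR and WKY among 9038, those changed by 0.5 on the log2 scale were called in 10.8% of cases, those by 1 in 66.2%, by 1.5 in 88.7% and by 2 in 95.5%. Same-numbered arrays had deviations that correlated between -0.07 and 0.13, so numbers were not taken to pair samples. Alternatives covered the filter, scaling, pseudocount, spread model, RNA ratio, scan day, replicate number, unmoderated tests and each array left out.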

Additional observations from a re-analysis of the deposited data

How the results depend on the processing

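Atp1b1 was higher in SHR on both probesets under every alternative in which they were tested. Against WKY the log2 difference ran from 0.74 to 1.13 on the brighter probeset (adjusted p 0.0274 to 0.333) and from 0.71 to 1.68 on the dimmer (0.0138 to 0.35). Against ACTH it ran from 1.35 to 1.67 (0.000434 to 0.0714) and from 1.19 to 1.67 (0.00407 to 0.214). The balance of Atp1b1 and Atp1b3 kept its direction in each comparison. The cause of the changes in calls below was not tested, except that fewer or more probesets tested and fewer arrays move the adjustment by construction.

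For SHR against WKY the count of member probesets called, 1, became 0 with all probesets tested, the GAPDH ratio in the model, a scan day block, or the methods' test without moderation. With a mean signal of at least 100 it stayed 1, but the dimmer Atp1b1 probeset was left out and the brighter was called (limma adjusted p = 0.0386). The count became 2 with median centring, a pseudocount of 16, a variance trend, array weights and at the methods' thresholds without adjustment, and ran from 0 to 2 as arrays were left out. The fit with the replicate number as a block also called 2 (adjusted p = 0.0388 and 0.033); the samples share only a number, and 4 of 9 arrays correlated best with their own. For SHR against ACTH the count of 2 became 0 with all probesets, scan day and the methods' test, and 1 with a mean signal of at least 100, which leaves out the dimmer Atp1b1 probeset. It ran from 1 to 2 as arrays were left out. The F test's 2 became 0, 0, 0 and 1 under the same settings and 3 at the methods' threshold without adjustment, and ran from 0 (without SHR 2) to 2. For ACTH against WKY 0 became 1 at the methods' thresholds.

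Of the pathway lists, 2 calls in ACTH against WKY became 0 with all probesets, the GAPDH ratio, scan day and the methods' test, 1 with the mean signal filter or only the groups compared, 4 with a trend or array weights and 5 at the methods' thresholds, and ran from 0 to 2 as arrays were left out. In SHR against WKY 2 became 0 with the GAPDH ratio, and 1 with all probesets, the mean signal filter, array weights, scan day, the methods' test or only the groups compared, and ran from 1 to 2. In SHR against ACTH 1 became 0 with all probesets or scan day, 2 with median centring, the pseudocount, a trend or the methods' thresholds, and 4 with array weights, and ran from 0 to 1.

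Differences that had not passed turned direction in places. The dimmer Atp1b1 probeset in ACTH against WKY was 0.45 with scan day and ran from -0.41 to 0.032 as arrays were left out, above 0 without WKY 3 or ACTH 2. Fxyd1 was 0.13 in ACTH against WKY with the GAPDH ratio, and in SHR against WKY 0.071 with array weights and 0.23 with the GAPDH ratio. As arrays were left out, Fxyd1 ran from -0.17 to 0.13 in SHR against WKY (above 0 without WKY 1 or SHR 1) and from -0.015 (without SHR 3) to 0.28 in SHR against ACTH. Over all probesets, calls in ACTH against WKY fell from 113 to 0 under 3 settings, where counts at an unadjusted p under 0.05 were 1434 (all probesets tested), 774 (GAPDH ratio) and 858 (scan day), to 5 in the methods' test, and rose to 205 with array weights. Calls in SHR against WKY, 184, ran from 25 with scan day to 235 with a variance trend, and in SHR against ACTH, 308, from 34 with scan day to 895 with array weights. The scan day fit has 3 residual degrees of freedom, and its SHR against WKY value rests on WKY 2 alone.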

Other observations

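Among the pump and FXYD genes under the filter, Fxyd4, an FXYD protein known from kidney, had signals of 6.36, 2.99 and 6.03 on the WKY arrays, 15.6, 16.1 and 13.7 on the ACTH arrays and 22.7, 11.2 and 7.02 on the SHR arrays. All 6 ACTH and SHR arrays were above the WKY arrays, at signals that the filter treats as too low to test. Among the probesets tested, 10.7% had all ACTH arrays above WKY and 9.69% had all SHR arrays above WKY. No such share was counted for probesets under the filter. Fxyd6 gave 25.8, 29.4 and 26.7 in WKY, 37.1, 41.2 and 32.2 in ACTH and 41.6, 22.7 and 38.6 in SHR, with ACTH above WKY and SHR overlapping both. Fxyd3 gave 19.0, 30.1 and 27.4, then 37.8, 35.7 and 62.1, then 6.82, 53.2 and 33.4, and its SHR arrays spanned most of that range. Fxyd2, the gamma subunit of the renal pump, lay between 16.7 and 37.6, Atp1b4 between 0.678 and 12.8, and Atp1a4, an alpha subunit known from sperm, between 0.399 and 8.12, each with overlapping groups.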
